A study of Mus musculus with 12 samples.

Results

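The guanylate-binding protein genes Gbp1 to Gbp10 were described in the frontal bone of newborn mice of the strains C57BL/6 and BALB/c, wild type or carrying the Crouzon allele of the fibroblast growth factor receptor FGFR2. Members were the rows of the deposited count table whose gene symbol was Gbp1, Gbp2 and so on to Gbp10, and 10 of 10 were found among 23358 rows. The family was chosen by the counts of Gbp1, which were 0 in every C57BL/6 sample, so the strain difference of Gbp1 is given below as a description, without a test. The measures that this choice did not use are the strain differences of the other 9 members and all genotype differences. All 10 members passed the filter on low counts (at least 0.281 CPM, the counts-per-million of a library, in at least 3 samples). Gbp1 and Gbp10 passed it only through the BALB/c samples, where 6 of 6 were over the limit, against 0 and 2 of the 6 C57BL/6 samples.

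The 12 samples were frontal bones taken on postnatal day 3, and each piece also held the frontonasal and coronal sutures and the nasal bone. They fell into 4 groups of 3: C57BL/6 wild type (replicates 1 to 3), C57BL/6 FGFR2C342Y/+ (replicates 4 to 6), BALB/c wild type (replicates 13 to 15) and BALB/c FGFR2C342Y/+ (replicates 16 to 18). FGFR2C342Y/+ mice are heterozygous for a receptor substitution known from Crouzon syndrome, a disorder of early suture closure in the skull, and the wild types carry no listed allele or treatment. Tissue was digested with collagenase and trypsin before RNA extraction. The labels do not say whether replicates are separate animals, nor their sex, so the p-values measure the spread between these samples, which may be technical.

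Libraries held 27181658 to 46521546 counts in genes. The sample descriptions name a single flow cell for all C57BL/6 libraries and a different one for all BALB/c libraries, so strain and sequencing run cannot be told apart in any strain difference below. Every count in the table was even, which was taken to mean that both reads of a pair were counted, though the counting settings are not given in the sources used here. On that reading the limit that a count of 0 allows was set at 3 read pairs, or 6 counts, per library. The 8 osteoblast markers checked against the tissue label were present in every group and summed to 112700 to 260700 CPM per sample. The wild-type C57BL/6 libraries also held transcripts of olfactory and respiratory epithelium, at 198.1 to 357.4 CPM over 7 markers, against 5.384 to 122.9 in the C57BL/6 mutants and 5.095 to 5.636 in BALB/c. In bulk tissue, fewer cells of a type and less RNA per cell cannot be told apart.

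Guanylate-binding proteins are large GTPases that cells make in quantity after exposure to interferon, above all interferon gamma. They assemble on the membranes that enclose intracellular bacteria and parasites, help to break those compartments open, and help to activate inflammasomes. Gbp1, Gbp2 and Gbp5 carry a lipid anchor at the carboxyl end, and Gbp5 is known for its part in NLRP3 inflammasome assembly. Interferon acts on their promoters through sequence elements known as GAS elements and interferon-stimulated response elements (ISRE). Without infection, tissues usually hold little of these transcripts, and inbred strains of mice are known to differ in the induction of Gbp1.

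The members lie in 2 clusters of the mouse genome (mm10, with positions as deposited). Gbp5, Gbp7, Gbp3, Gbp1 and Gbp2 follow each other on the plus strand of chromosome 3, from 142496934 to 142638008, over 141.1 kb. Gbp8, Gbp9, Gbp4, Gbp10 and Gbp6 follow each other on the minus strand of chromosome 5, from 105014153 to 105293699, over 279.5 kb, and the pseudogene Gbp11 lies beyond them at 105323026 to 105346472. The deposited rows start within 1930 bases of the RefSeq models, and RefSeq names Gbp1 as Gbp2b. RefSeq and GENCODE list all 10 members as protein coding, and the GENCODE models of Gbp8 and Gbp9 run on into Gbp4, while the deposited rows of these genes do not overlap.

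Promoters of 5 members (Gbp1, Gbp2, Gbp3, Gbp5 and Gbp7) were matched in the RefSeq promoter table of build GRCm38.p6, which is a C57BL/6 sequence, and the BALB/c sequence was not analysed here. Those of Gbp1, the member without counts in C57BL/6, of its neighbour Gbp2, and of Gbp3 are printed 5′ to 3′ as the 250 bases before the start site, on the plus strand, with ISRE core matches in capitals. Their positions are chr3:142594597-142594846 for Gbp1, chr3:142620413-142620662 for Gbp2 and chr3:142559794-142560043 for the first of 2 start sites of Gbp3.
Gbp1: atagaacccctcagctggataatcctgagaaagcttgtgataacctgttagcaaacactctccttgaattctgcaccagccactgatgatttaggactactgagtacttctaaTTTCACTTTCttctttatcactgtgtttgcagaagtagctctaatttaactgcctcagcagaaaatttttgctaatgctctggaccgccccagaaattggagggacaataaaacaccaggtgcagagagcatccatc
Gbp2: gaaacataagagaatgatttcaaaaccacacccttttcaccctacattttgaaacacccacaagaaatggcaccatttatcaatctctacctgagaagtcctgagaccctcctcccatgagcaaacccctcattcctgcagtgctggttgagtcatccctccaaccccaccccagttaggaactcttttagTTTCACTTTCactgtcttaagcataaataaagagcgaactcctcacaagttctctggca
Gbp3: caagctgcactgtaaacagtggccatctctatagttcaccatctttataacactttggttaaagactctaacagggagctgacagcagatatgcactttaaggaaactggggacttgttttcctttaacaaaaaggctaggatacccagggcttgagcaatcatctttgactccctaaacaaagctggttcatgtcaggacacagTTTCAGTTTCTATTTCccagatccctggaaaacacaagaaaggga
The ISRE core was searched as GAAANNGAAA and the GAS element as TTCNNNGAA, on both strands, in windows of 250 bases before to 50 after each start, and the letters of the 2 motifs can overlap. All 5 matched members held an ISRE core in a window, which 3.44% of the 32851 windows of the table held. The Gbp1 and Gbp2 promoters both held TTTCACTTTC as printed, which matches the ISRE core on the minus strand. Its first printed base lies 137 bases before the start of Gbp1 and 59 before that of Gbp2. Gbp3 has 2 windows in the table: the one printed held a pair of overlapping matches, TTTCAGTTTC and TTTCTATTTC, starting 45 and 39 bases before its start, and the other, at chr3:142560106-142560405, held neither motif. Gbp5 and Gbp7 also held 2 GAS matches each, and a GAS element was found in 8.3% of all windows. A match is a description of letters in the reference strain.

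Levels of the members were low in all groups. Compared per length, as CPM per kilobase of the deposited gene length, the C57BL/6 samples (n = 6) had most of Gbp7 (1.51 ± 0.22, mean ± SD), Gbp2 (1.42 ± 0.18) and Gbp9 (1.37 ± 0.25), followed by Gbp3 (1.13 ± 0.24). Then came Gbp4 (0.66 ± 0.21), Gbp5 (0.37 ± 0.14), Gbp6 (0.35 ± 0.12), Gbp8 (0.20 ± 0.05), Gbp10 (0.047 ± 0.042) and Gbp1 at 0. In the BALB/c samples (n = 6) the order per length was Gbp3 (1.72 ± 0.29), Gbp2 (1.59 ± 0.43), Gbp9 (1.43 ± 0.31), Gbp7 (1.32 ± 0.19), Gbp4 (1.18 ± 0.20) and Gbp1 (1.08 ± 0.25). These 6 BALB/c levels form a run in which each differs from the next by less than the larger SD of the pair. Gbp6 (0.74 ± 0.20) stood below them, and Gbp5 (0.30 ± 0.11), Gbp10 (0.24 ± 0.06) and Gbp8 (0.22 ± 0.09) closed the order without a gap beyond their SD. In C57BL/6 the neighbours from Gbp7 down to Gbp3, and Gbp5 and Gbp6, differed by less than the larger SD, and the other steps were wider. These orders pool the genotypes: within C57BL/6 the wild types had Gbp2 first (1.49 ± 0.18, n = 3), then Gbp7 (1.41 ± 0.23), and Gbp5 (0.47 ± 0.12) above Gbp6 (0.28 ± 0.08), while the mutants had Gbp7 first (1.61 ± 0.19) and Gbp6 (0.42 ± 0.12) above Gbp5 (0.28 ± 0.09).

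**Figure D1:**
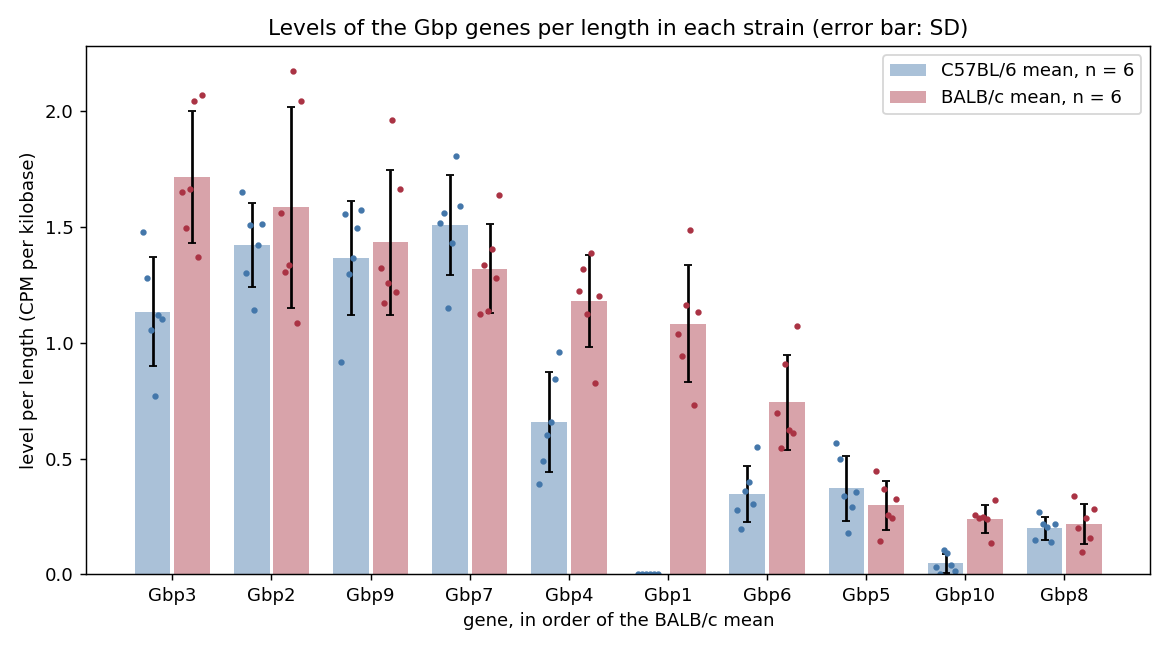
Level per length (CPM per kilobase) of the 10 Gbp genes in C57BL/6 (blue) and BALB/c (red), as the mean of 6 samples with the SD as error bar and each sample as a point. Gbp1 is at 0 in C57BL/6 and at 1.08 in BALB/c, and Gbp3, Gbp4, Gbp6 and Gbp10 have means in BALB/c beyond the SD of C57BL/6.

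Gbp1, a lipid-anchored member, had 0 counts in replicates 1 to 6, all from C57BL/6. In BALB/c wild type it had 78, 86 and 112 counts, or 2.93, 2.66 and 3.28 CPM. In the BALB/c mutants it had 140, 96 and 130 counts, or 4.20, 2.07 and 3.20 CPM. The strains did not overlap, and within BALB/c the samples ran from 2.07 to 4.20 CPM, with replicate 17 the lowest. Set against the limit that 0 counts allow in a C57BL/6 library, the BALB/c mean was at least 16.4-fold higher in wild type and at least 19.5-fold higher in mutants. Gbp1 made up 8.71% of the summed CPM of the 10 members in BALB/c. Of all 23358 genes, 16 (0.0685%) had 0 counts in all C57BL/6 samples and counts in all 6 BALB/c samples, and among these Gbp1 had the highest mean count in BALB/c, 107, followed by the class II pseudogene H2-Ea-ps with 76.3. These strain values chose the family and carry no test.

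**Figure D2:**
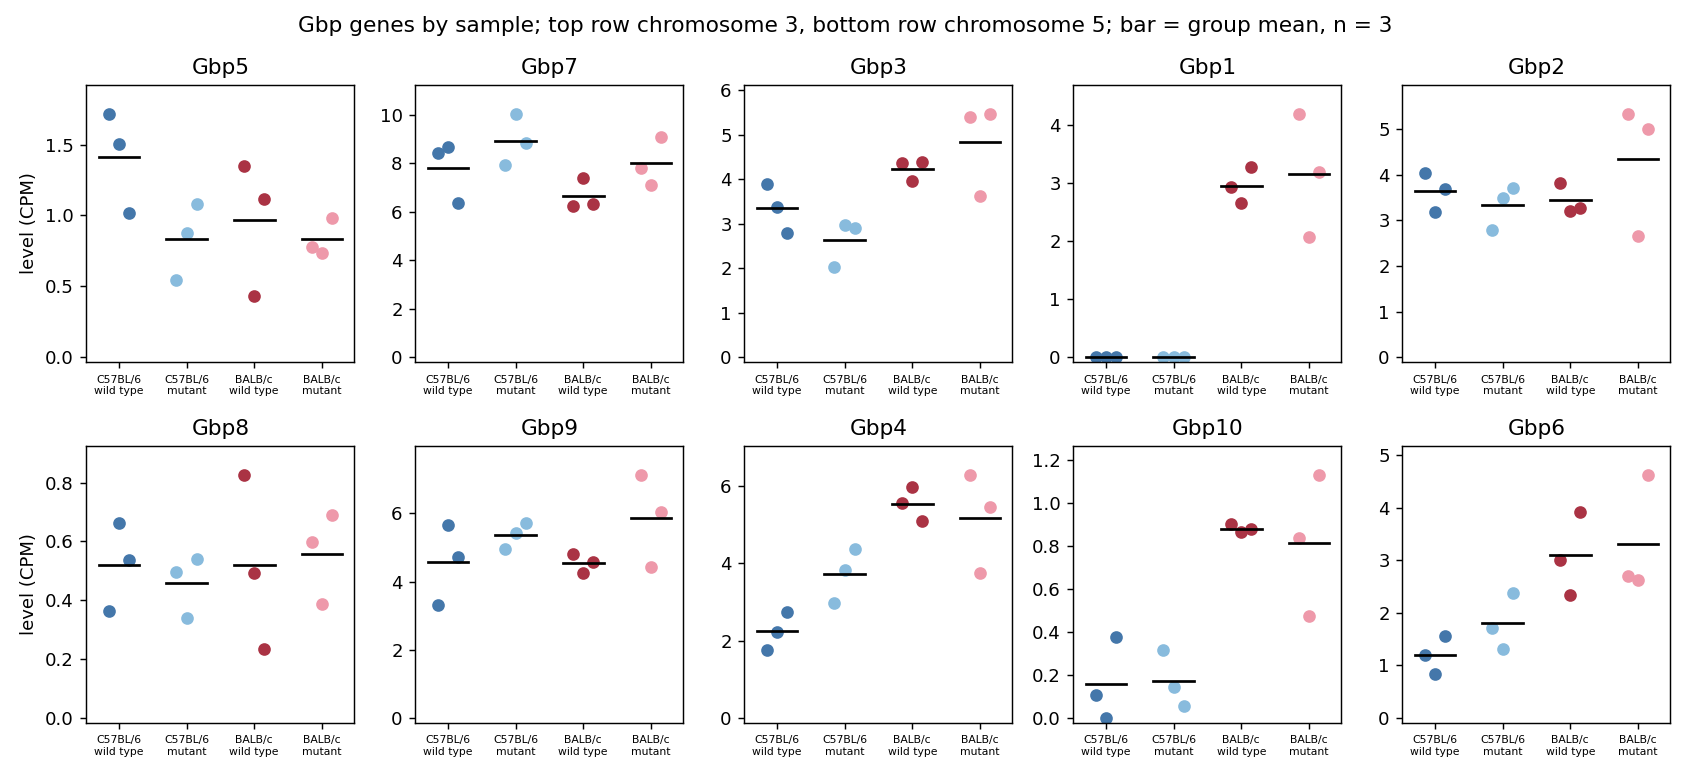
Level (CPM) of each Gbp gene in each of the 12 samples, by group, with the group mean of 3 samples as a bar. The top row shows the chromosome 3 cluster and the bottom row the chromosome 5 cluster, and the strains do not overlap for Gbp1 and Gbp10.

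Of the 8 members that were over the filter limit in at least 3 samples of each strain, all but Gbp1 and Gbp10, 2 were called as different between the wild-type strains. These were Gbp4 and Gbp6, both on chromosome 5 and both higher in BALB/c. A member was called at an adjusted p under 0.05 in edgeR's quasi-likelihood test, with Benjamini-Hochberg adjustment over the 16190 genes tested. The 2 of 8 (25%) stand beside 24.5% called higher among the 14743 genes over the limit in both strains. Their median log2 difference was -0.01, against 0.02 for those genes. In the mutants 1 of the 8 (12.5%) was called, Gbp3, higher in BALB/c, beside 18.8% of the same genes, with a median of 0.33 against 0.01.

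With Gbp10, which had to be high in BALB/c to be tested at all, the counts were 3 of 9 in wild type and 2 of 9 in mutants, and Gbp10 adds nothing to the direction. Over all genes tested, 22.8% were called higher and 25.6% lower in BALB/c wild type (48.5% in either direction), and 18% higher and 18.9% lower in BALB/c mutants (36.9% in either direction).

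Gbp4, a member of the chromosome 5 cluster, had 68, 74 and 102 counts in C57BL/6 wild type, or 1.77, 2.23 and 2.73 CPM. In BALB/c wild type it had 148, 194 and 174 counts, or 5.56, 5.99 and 5.10 CPM. The wild-type groups did not overlap, which held for 57.5% of all genes tested. In wild type Gbp4 was 2.47-fold higher in BALB/c (log2 1.31, SE 0.23, adjusted p = 0.000924 in edgeR). In the mutants the C57BL/6 samples had 132, 158 and 162 counts, or 2.98, 3.83 and 4.36 CPM, and the BALB/c samples 210, 174 and 222 counts, or 6.30, 3.75 and 5.46 CPM. These mutant groups overlapped, since BALB/c replicate 17 lay below C57BL/6 replicates 5 and 6. The mutant strain difference was log2 0.47 (SE 0.23, 95% interval -0.02 to 0.97, adjusted p = 0.124 in edgeR), and without replicate 17 it was 0.66 with an adjusted p of 0.0453.

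Gbp6 had 46, 28 and 58 counts in C57BL/6 wild type, or 1.20, 0.84 and 1.56 CPM. BALB/c wild type had 80, 76 and 134 counts, or 3.01, 2.35 and 3.92 CPM. All 3 BALB/c wild-type samples were above all 3 of C57BL/6, and the difference was 2.57-fold (log2 1.36, SE 0.34, adjusted p = 0.00579 in edgeR). In the mutants the C57BL/6 samples had 76, 54 and 88 counts, or 1.72, 1.31 and 2.37 CPM, and the BALB/c samples 90, 122 and 188 counts, or 2.70, 2.63 and 4.63 CPM. The mutant groups did not overlap either, which held for 50.2% of all genes. That difference missed the threshold, at log2 0.88 (SE 0.33, 95% interval 0.17 to 1.60, adjusted p = 0.0512 in edgeR), with adjusted p from 0.0295 to 0.221 over 14 alternatives. It passed in 6 of the 14, among them DESeq2 (0.0295), limma-voom (0.0355), scaling by total counts (0.0326) and the fit without replicate 6 (0.0333).

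Gbp10 was close to the limit of detection in C57BL/6, with 4, 0 and 14 counts in wild type and 14, 6 and 2 in mutants, or 0 to 0.375 CPM. BALB/c wild type had 24, 28 and 30 counts, or 0.902, 0.865 and 0.878 CPM, and the BALB/c mutants 28, 22 and 46, or 0.839, 0.474 and 1.13 CPM. All 6 BALB/c samples were above all 6 of C57BL/6, as was the case for 12.4% of all genes tested, and besides Gbp1 no other member had strains that did not overlap. The fitted log2 difference was 2.42 in wild type (SE 0.80, adjusted p = 0.0265 in edgeR) and 2.19 in mutants (SE 0.78, adjusted p = 0.0451). Gbp10 passed the filter only through BALB/c, so these p-values depend on the direction they test and are given as a description. They also rest on few counts. The wild-type call was lost without replicate 1 (adjusted p 0.0896), 2 (0.0516), 13 (0.0583), 14 (0.0547) or 15 (0.0583), and the mutant call without replicate 5 (0.108), 6 (0.128), 16 (0.0896), 17 (0.0513) or 18 (0.133). Over 14 alternatives the wild-type call held in 8 and the mutant call in 7, with log2 differences of 1.87 to 3.93 and 1.80 to 2.97.

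Gbp6 and Gbp10 are near copies of each other, so their counts are uncertain. Of the 50-base words of Gbp10's annotated transcript sequence, 73.3% also occur in Gbp6, and 45.9% of those of Gbp6 occur in Gbp10. Over all other genes, the share of words found elsewhere was 76.2% for Gbp10, 49.9% for Gbp6, 19.2% for Gbp11, 12.9% for Gbp8 and 6.54% for Gbp4, and 1.44% to 4.25% for the remaining 6 members. Across all genes, the classes with over 5% of words shared had more genes called higher in BALB/c than genes without a shared word, and the class with up to 5%, which holds 6 of the 10 members, had fewer. In wild type, 23% of 9471 genes without a shared word were called higher, against 18.5% of 5068 genes with up to 5% shared, 35.1% of 934 genes with over 5% to 20% of words shared, 43.4% of 380 genes with over 20% to 50%, and 41.7% of 127 genes with over 50%. In mutants those shares were 17.6%, 15.4%, 27.1%, 34.7% and 38.6%. The median log2 difference in wild type was 0.33 for genes with over 50% shared, below the 2.42 of Gbp10, and 0.28 for those with over 20% to 50%, below the 1.36 of Gbp6. The part of shared sequence in the results for Gbp6 and Gbp10 was not tested.

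**Figure D3:**
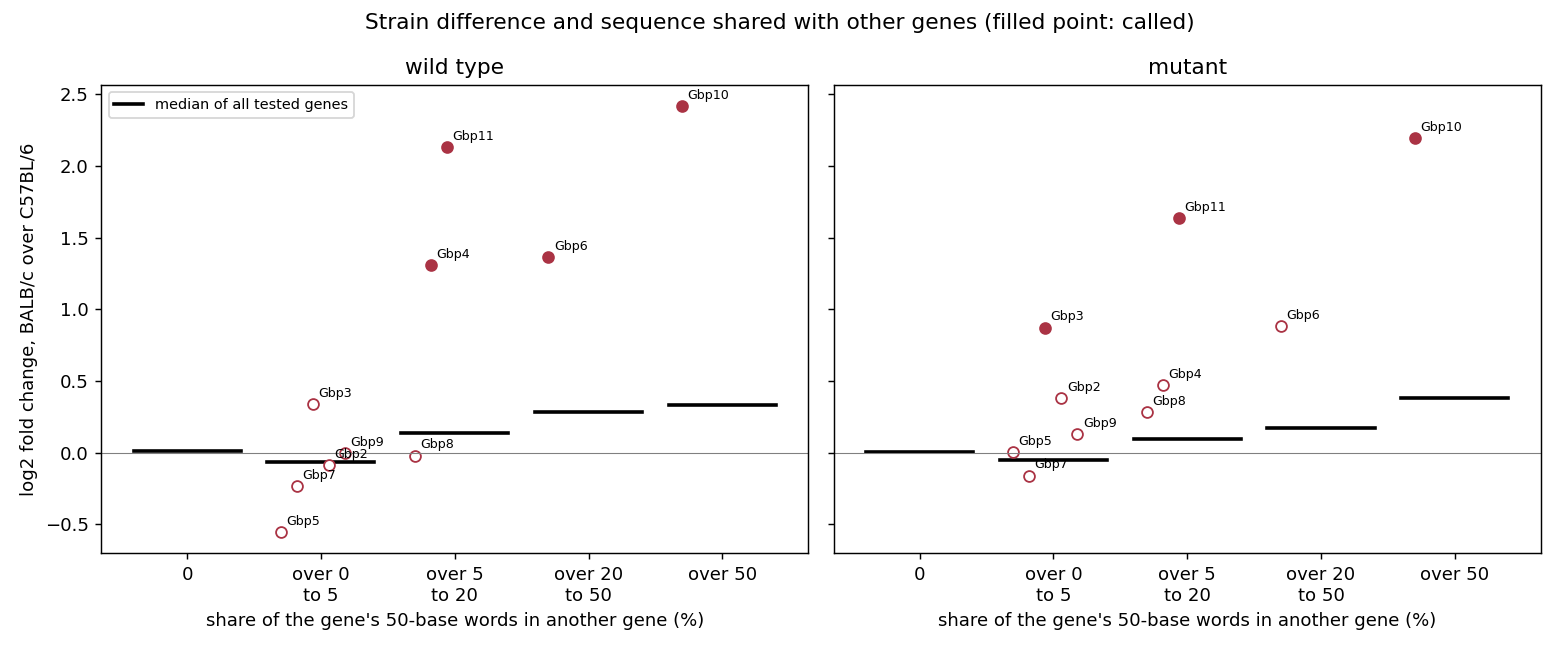
Log2 strain difference (BALB/c over C57BL/6) of Gbp genes by the share of their 50-base words that occur in another gene, in wild type (left) and mutants (right), with the median of all tested genes in each class as a bar. Position within a class has no meaning, filled points are called, and Gbp3, Gbp4, Gbp6, Gbp9, Gbp10 and Gbp11 lie above the medians of their classes in both panels.

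The pseudogene Gbp11, next to the cluster, was also higher in BALB/c, on few counts. It had 4 to 10 counts in C57BL/6 wild type, around the limit of 6, and 12 to 18 in C57BL/6 mutants. In BALB/c it had 22 to 38 counts in wild type and 32 to 62 in mutants. Its level was 0.203 ± 0.083 CPM in C57BL/6 wild type and 0.898 ± 0.217 in BALB/c wild type (SD, n = 3), a log2 difference of 2.13 (SE 0.42, adjusted p = 0.00173 in edgeR). In mutants it was 0.381 ± 0.107 and 1.19 ± 0.30 CPM, a log2 difference of 1.64 (SE 0.39, adjusted p = 0.00663). The other tested genes within 300 kb of the chromosome 5 members, Zfp951, Abcg3, Lrrc8b and Lrrc8c, included none called higher in BALB/c. Over all genes tested, 22.8% were called higher and 25.6% lower in wild type, and 18% and 18.9% in mutants. Abcg3 (log2 -0.95, adjusted p = 0.0214 in edgeR) and Lrrc8b (log2 -1.99, adjusted p = 5.87e-05) were lower in BALB/c wild type, and Lrrc8b (log2 -1.07, adjusted p = 0.00329) and Zfp951 (log2 -0.63, adjusted p = 0.0295) in BALB/c mutants. Of the atlastins, related GTPases that fuse membranes of the endoplasmic reticulum, Atl3 was lower in BALB/c wild type (log2 -0.27, adjusted p = 0.0088 in edgeR) and mutants (log2 -0.36, adjusted p = 0.00203), and Atl1 and Atl2 did not pass. Gbp8 and Gbp9, at the other end of the cluster, did not pass in either genotype. Gbp8 ranged from 8 to 28 counts over the 12 samples, with a log2 strain difference of -0.02 in wild type (95% interval -1.05 to 1.01) and 0.28 in mutants (-0.74 to 1.29). Gbp9 ranged from 128 to 246 counts, with -0.01 in wild type (-0.47 to 0.45) and 0.13 in mutants (-0.33 to 0.58).

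On chromosome 3, Gbp3 was higher in the BALB/c mutants. The C57BL/6 mutants had 90, 122 and 108 counts, or 2.03, 2.96 and 2.91 CPM, and the BALB/c mutants 180, 168 and 222, or 5.40, 3.62 and 5.46 CPM. The mutant groups did not overlap and the difference was 1.83-fold (log2 0.87, SE 0.22, adjusted p = 0.00781 in edgeR), a call that held in 14 of 14 alternatives. In wild type Gbp3 had 150, 112 and 104 counts in C57BL/6, or 3.90, 3.37 and 2.79 CPM, and 116, 128 and 150 in BALB/c, or 4.36, 3.95 and 4.39 CPM. Those groups did not overlap, but the log2 difference of 0.34 (SE 0.22, 95% interval -0.13 to 0.81, adjusted p = 0.216 in edgeR) missed the threshold. The difference between the genotypes in this strain effect was log2 0.54 (SE 0.30, adjusted p = 0.259), so the strain effect of Gbp3 was not shown to differ between genotypes.

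Gbp2, a lipid-anchored member recruited to parasite vacuoles, had 106 to 156 counts in C57BL/6 and 102 to 204 in BALB/c. Its log2 strain difference was -0.09 in wild type (95% interval -0.62 to 0.45) and 0.38 in mutants (-0.15 to 0.91, adjusted p = 0.243 in edgeR), and without replicate 17 the latter was 0.64 with an adjusted p of 0.0298. Gbp7 had 238 to 414 counts in C57BL/6 and 166 to 370 in BALB/c, with log2 strain differences of -0.23 (-0.56 to 0.10) and -0.16 (-0.49 to 0.17). Gbp5, with 24 to 66 counts in C57BL/6 and 14 to 40 in BALB/c, had -0.55 (-1.45 to 0.35) and 0.01 (-0.90 to 0.91). In mutants the upper ends for Gbp2 and Gbp5 lie above the 0.87 measured for Gbp3, so a difference of that size is not excluded for them. The 4 chromosome 3 members besides Gbp1 summed to 16.24 ± 2.14 CPM in C57BL/6 wild type, 15.75 ± 2.13 in C57BL/6 mutants, 15.3 ± 0.42 in BALB/c wild type and 18 ± 3.42 in BALB/c mutants (SD, n = 3). The 5 chromosome 5 members summed to 8.69 ± 1.70, 11.53 ± 1.34, 14.59 ± 0.58 and 15.73 ± 3.53 CPM in the same order. Of the 4 tested genes within 300 kb of the chromosome 3 members (Pdlim5, Ccbl2, Gtf2b and Pkn2), 0 were called higher in BALB/c. The shares over all genes were 22.8% higher and 25.6% lower in wild type, and 18% and 18.9% in mutants. Pkn2 (log2 -0.30, adjusted p = 0.00824 in edgeR) was lower in wild type, and Pdlim5 (log2 -0.38, adjusted p = 0.00307) and Pkn2 (log2 -0.25, adjusted p = 0.0294) were lower in mutants.

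**Figure D4:**
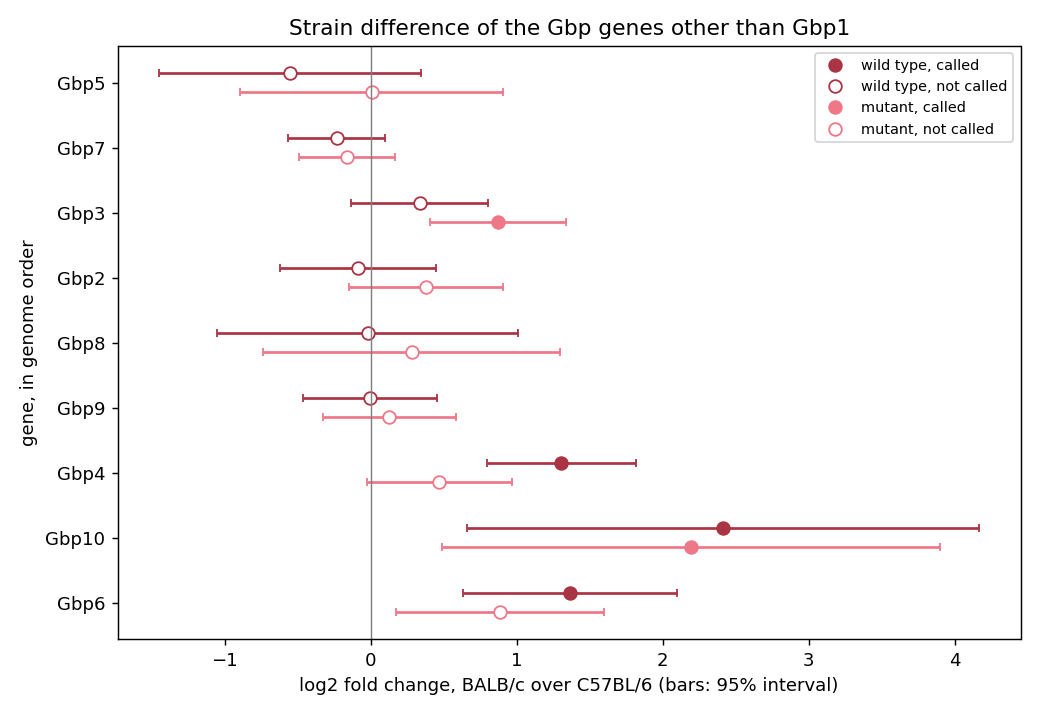
Log2 fold change of BALB/c over C57BL/6 for the 9 Gbp genes other than Gbp1, in wild type (dark) and mutants (light), with 95% intervals; filled points are called. Gbp4, Gbp6 and Gbp10 are called in wild type and Gbp3 and Gbp10 in mutants, where Gbp10 passed the filter only through BALB/c, and no member is called lower.

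Markers of other cells moved with strain as well. Summed neutrophil markers (6 of 6 listed) ranged from 101 to 349.3 CPM in the C57BL/6 samples and from 514.9 to 773.5 in BALB/c. B cell markers (6 of 6) ranged from 8.051 to 23.23 and from 34.96 to 72.91 CPM, and erythroid markers (5 of 6) from 25.12 to 86.85 and from 95.22 to 191.4. Summed macrophage markers (8 of 9) were 384.1 to 450.7 CPM in C57BL/6 wild type and 473.3 to 524.1 in BALB/c wild type, where 3 of 8 were called higher and 0 lower (median log2 difference 0.26). In mutants their sums were 570.3 to 645.9 in C57BL/6 and 497.3 to 508.8 in BALB/c, and single markers went both ways, with 2 of 8 called higher and 3 lower (median -0.03). Summed endothelial markers (7 of 7) did not overlap between wild types, at 439.2 to 506.7 CPM in C57BL/6 and 512.2 to 596.4 in BALB/c, and overlapped between mutants, at 517.3 to 619.9 and 503.3 to 582.1, with 1 of 7 called higher in wild type and 1 of 7 lower in mutants. Summed osteoblast markers (8 of 8) overlapped between wild types and not between mutants, at 217500 to 260700 CPM in C57BL/6 and 183900 to 197900 in BALB/c, where 4 of 8 were called lower and 1 higher. Summed T and NK cell markers (8 of 8) overlapped in both genotypes, at 3.377 to 5.55 CPM in C57BL/6 and 3.982 to 6.053 in BALB/c. Of the 5 tested, 1 was called higher and 0 lower in BALB/c wild type (median log2 difference -0.13). In BALB/c mutants 2 were called higher and 0 lower (median 1.5). Of those tested, Cd3e and Cd3d passed the filter only through BALB/c. Skeletal muscle markers (5 of 5) ranged from 1.213 to 58.89 CPM in C57BL/6 and from 1.87 to 343.4 in BALB/c, and 4 of 5 were called higher in the BALB/c mutants, which ran from 1.87 to 343.4 against 1.213 to 3.502 in the C57BL/6 mutants. Of these lists and that of the epithelium, the gene at 0 in a whole group was Cyp2g1, in BALB/c wild type. The part of these cells in the strain differences of the members and of the gene lists given further on was not tested.

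Between genotypes, 1 of the 9 members that could be tested in C57BL/6 was called, Gbp4, where 23.9% of all genes were called and 11.3% called higher. The mutants had 2.98, 3.83 and 4.36 CPM of Gbp4 and the wild types 1.77, 2.23 and 2.73. The groups did not overlap, which held for 41.6% of all genes tested, and Gbp4 was 1.66-fold higher in the mutants (log2 0.73, SE 0.23, adjusted p = 0.0402 in edgeR). The call was lost without replicate 1 (adjusted p 0.127), 2 (0.081), 5 (0.0954) or 6 (0.141), and held in 7 of 14 alternatives, with log2 differences of 0.54 to 0.90. Summed macrophage markers were 384.1 to 450.7 CPM in these wild types and 570.3 to 645.9 in the mutants, osteoblast markers 112700 to 195400 and 217500 to 260700, and epithelial markers 198.1 to 357.4 and 5.384 to 122.9. Of the 8 macrophage markers 2 were called higher and 1 lower, with a median log2 difference of 0.13. Endothelial markers were 439.2 to 506.7 CPM in wild types and 517.3 to 619.9 in mutants (2 of 7 called higher), and erythroid markers 70.03 to 86.85 and 25.12 to 35.5 (4 of 5 called lower). Neutrophil markers were 199.4 to 349.3 CPM in wild types and 101 to 234.5 in mutants (3 of 6 called lower), and B cell markers 11.42 to 23.23 and 8.051 to 11.96 (2 of 6 called lower). Of 5 T and NK cell markers tested, 1 was called lower and 0 higher (median log2 difference -1.02). Their sums overlapped, at 3.377 to 4.624 CPM in wild types and 3.832 to 5.55 in mutants. The part of these cells in the Gbp4 result was not tested. The remaining 8 members did not pass. Among them Gbp5 (log2 -0.77, SE 0.41, adjusted p = 0.188 in edgeR) had a difference larger in size than that of Gbp4, and lower in mutants. Gbp6 followed (log2 0.58, SE 0.33, adjusted p = 0.219), while Gbp2, Gbp3, Gbp7, Gbp8, Gbp9 and Gbp10 lay between -0.35 and 0.23. The median log2 difference of the 9 members was 0.11, against -0.00395 over all genes tested. Gbp1 had 0 counts in all 6 of these samples and was not tested here.

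In BALB/c, 0 of 10 members were called between genotypes by edgeR, which called 0.136% of all genes. DESeq2 and limma-voom also called 0 members, where they called 1.95% and 0.272% of all genes. At an unadjusted p under 0.05 in edgeR there were 0 members, against 1901 of the 16190 genes tested. Log2 differences ran from -0.21 for Gbp5 to 0.37 for Gbp9, with a median of 0.11 against 0 over all genes. For Gbp1 the difference of mutants from wild type was log2 0.09 (SE 0.32, 95% interval -0.64 to 0.82, adjusted p = 0.961 in edgeR), and for Gbp4 it was -0.10 (-0.60 to 0.39, adjusted p = 0.918). In the BALB/c mutants, replicate 17 had the lowest CPM of the 3 samples for 10 of 10 members, where it was lowest for 31.2% of all genes tested. The 10 members summed to 27.85 CPM in replicate 17, against 41.07 in replicate 16 and 41.73 in replicate 18, and to 31.62 to 33.81 in BALB/c wild type. Replicate 17 was also the most deeply sequenced library, at 46521546 counts, and the part of depth was not tested.

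**Figure D5:**
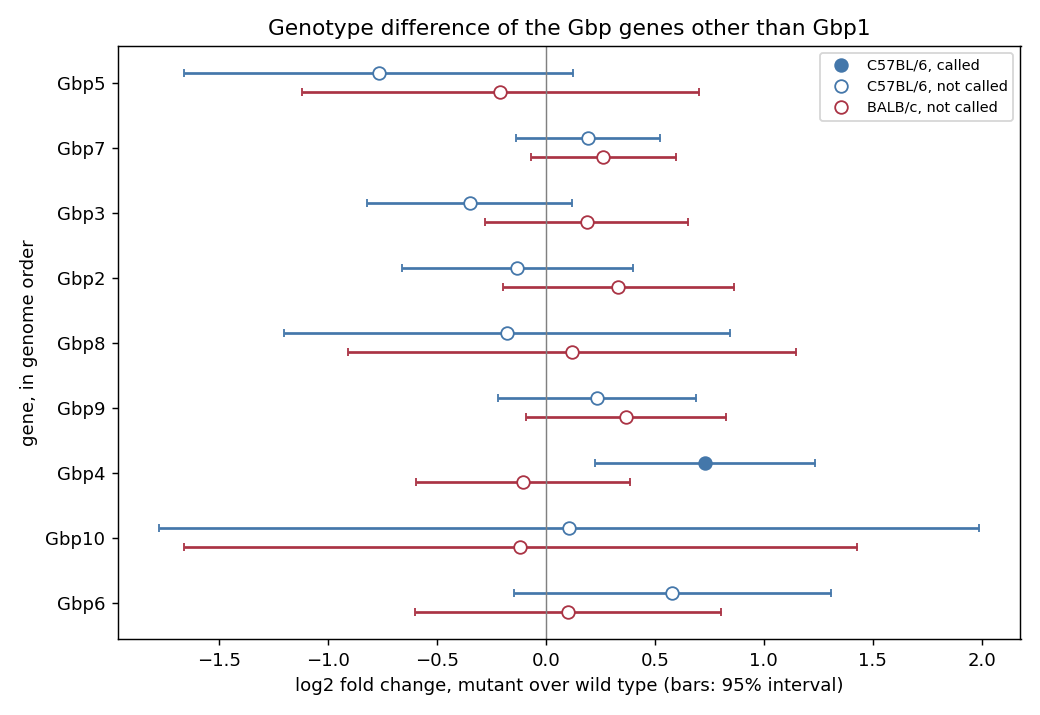
Log2 fold change of FGFR2C342Y/+ over wild type for the 9 Gbp genes other than Gbp1, in C57BL/6 (blue) and BALB/c (red), with 95% intervals; filled points are called. Gbp4 in C57BL/6, at 0.73, is the filled point.

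The genotype effect differed between strains for 0 of the 9 members tested, where 10% of all genes were called by edgeR. An unadjusted p under 0.05 was found for 4780 of the 16190 genes tested and for 1 member. That member was Gbp4, whose effect was log2 -0.84 in BALB/c relative to C57BL/6 (SE 0.32, 95% interval -1.54 to -0.13, unadjusted p = 0.0243, adjusted p = 0.113 in edgeR), with adjusted p from 0.0527 to 0.233 over 19 alternatives. Averaged over the strains, 0 of 9 members were called by edgeR, where 7.99% of all genes were called. At an unadjusted p under 0.05 in edgeR there were 0 members, against 4104 of the 16190 genes tested. DESeq2 and limma-voom also called 0 members in both comparisons. For the interaction they called 16.7% and 10.3% of all genes, and for the averaged effect 13.6% and 8.76%.

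The authors' deposited table of DESeq2 comparisons states strain differences as C57BL/6 over BALB/c, so that a negative value is a higher level in BALB/c. In wild type, the authors' deposited table lists Gbp4 at log2 -0.80 (q = 0.00239), Gbp6 at -0.55 (q = 0.0312), Gbp10 at -0.37 (q = 0.19) and Gbp11 at -0.95 (q = 0.00432). For the mutants, the authors' deposited table lists Gbp3 at -0.73 (q = 0.000709), Gbp6 at -0.26 (q = 0.377), Gbp10 at -0.34 (q = 0.267) and Gbp11 at -0.97 (q = 0.00434). Gbp1 stands at -3.34 in wild type and -3.60 in mutants in the authors' deposited table. Between C57BL/6 genotypes, the authors' deposited table has Gbp4 at 0.53 with q = 0.0794 and Gbp5 at -0.71 with q = 0.0447. The edgeR calls for Gbp10 in both genotypes and for Gbp4 between genotypes were thus absent from the authors' deposited table at q under 0.05, and that for Gbp5 was absent from the edgeR fit. Whether those fold changes were shrunken is not given in the sources used here.

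Genes with the pattern most like that of Gbp1, by Pearson's r of log2 CPM over the 12 samples among 12895 genes, were Rplp2 (0.995), Rps23 (0.995), Gapdh (0.995), H2-Ea-ps (0.994) and Cox7c (0.993). The samples share strain and flow cell, and Gbp1 separates the strains, so these values describe the same split into 2 sets of 6. Rplp2, Rps23, Gapdh and Cox7c have 13.9%, 37.7%, 24.7% and 22.1% of their 50-base words in other genes, and H2-Ea-ps has 0%. Gapdh, for example, was listed at 14.8 CPM in C57BL/6 wild type and 75.4 in BALB/c wild type. For the mean of the other 9 members, the genes most alike were Parp10 (0.861), Fam76b (0.854), Prkar1a (0.850), Unc93b1 (0.845) and Ubap1 (0.845), none with a shared word. Parp10, a mono-ADP-ribosyltransferase, had group means of 8.32 and 7.67 CPM in C57BL/6 wild types and mutants and 10.3 and 11.2 CPM in BALB/c.

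Other genes of the interferon response were taken from fixed lists, whose counts stand beside the shares over all genes: 22.8% called higher and 25.6% lower in BALB/c wild type, 18% and 18.9% in BALB/c mutants, and 11.3% and 12.6% in C57BL/6 mutants against wild type. Among the immunity-related GTPases, which act with the Gbps on pathogen vacuoles, 4 of 7 tested were higher in BALB/c wild type and 0 lower, with a median log2 difference of 0.48. These 4 were Gm12250 (log2 1.51, adjusted p = 0.00904 in edgeR), Irgm2 (0.48, 0.0221), Tgtp2 (adjusted p = 0.0191) and Tgtp1 (adjusted p = 0.0192). In wild type Tgtp1 had 0.091 ± 0.061 CPM in C57BL/6 and 0.527 ± 0.394 in BALB/c, and Tgtp2 had 0.017 ± 0.030 and 0.267 ± 0.134 (SD, n = 3). In mutants 3 of 7 were higher and 0 lower, with a median of 0.62: Tgtp1 (adjusted p = 0.000992 in edgeR), Irgm1 (log2 0.62, adjusted p = 0.00936) and Tgtp2 (adjusted p = 0.0128). Tgtp1 had 0 counts in the 3 C57BL/6 mutants and 0.616 ± 0.194 CPM in the BALB/c mutants, at least 3.81-fold higher against the limit of 6 counts per library, and the median stays at 0.62 with Tgtp1 at that bound. Tgtp1 and Tgtp2 are near-identical copies at 0 to 0.616 CPM in group means, so their counts are uncertain, and both passed the filter only through BALB/c. Without them 2 of 5 were higher in wild type and 1 of 5 in mutants, and the medians were 0.22 and 0.60. Between genotypes in C57BL/6, 1 of 7 was lower and 0 were higher, and that gene, Tgtp1, was under the limit of detection in both groups on average.

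Genes that carry the interferon gamma signal did not move one way between strains, with 2 of 11 tested higher and 2 lower in BALB/c wild type, and 2 higher and 3 lower in BALB/c mutants. Socs1, a feedback inhibitor of the JAK kinases, was higher in BALB/c, with log2 1.70 in wild type (SE 0.12, adjusted p = 2.31e-06 in edgeR) and 1.11 in mutants (SE 0.12, adjusted p = 3.48e-05). The kinases Jak2 (log2 -0.46, adjusted p = 0.000697) and Jak1 (-0.36, 0.00116) were lower in BALB/c mutants. Nlrc5, the transactivator of class I genes, was lower in BALB/c, with log2 -1.34 (adjusted p = 0.0026) and -1.14 (adjusted p = 0.0077). Between C57BL/6 genotypes 5 of 11 were higher in mutants and 0 lower, where 11.3% of all genes were called higher, among them the receptor chains Ifngr1 (log2 0.46, adjusted p = 0.0077) and Ifngr2 (0.32, 0.029) and the kinases Jak2 (0.36, 0.00772) and Jak1 (0.22, 0.0309). The cytokine gene Ifng itself did not pass the filter on low counts and had 0 counts in all of BALB/c wild type.

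Genes of the type I interferon signal were 1 of 8 higher and 0 lower in BALB/c wild type, and 4 higher and 2 lower in BALB/c mutants, where Usp18, a feedback inhibitor of the type I receptor, was higher (log2 1.60, adjusted p = 0.000962 in edgeR). Of 25 other interferon-stimulated genes, 2 were higher and 6 lower in BALB/c wild type, and 5 higher and 1 lower in BALB/c mutants. The chemokines Cxcl10 (log2 -1.82, adjusted p = 0.000808) and Cxcl9 (-1.34, 0.00151) were lower in BALB/c wild type, while Ifi44 (1.49, 0.000299) and Rsad2 (1.82, 0.000397) were higher in BALB/c mutants. Between C57BL/6 genotypes 0 of the 25 were higher and 8 lower in mutants, where 12.6% of all genes were called lower, with a median log2 difference of -0.62. Examples are Ifi44 (log2 -1.01, adjusted p = 0.00847), Cxcl10 (-1.37, 0.0101), Dhx58 (-1.15, 0.0108) and Cxcl9 (-1.03, 0.0147), and Usp18 was lower as well (log2 -1.42, adjusted p = 0.00536). Markers of other cells were called lower in the same comparison, 3 of 6 of neutrophils (median log2 -0.74), 2 of 6 of B cells (-0.72) and 4 of 5 of erythroid cells (-1.02). So were 3 of 7 of the epithelium (-2.45) and 1 of 5 tested of T and NK cells (-1.02, with 0 higher), while 6 of 8 osteoblast markers were higher (0.56). The part of these cells in the changes of the interferon lists between genotypes was not tested. Among the Gbp genes the call in that comparison was Gbp4, which was higher.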

How the data were processed

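Frontal bone RNA of 12 mouse samples was sequenced from an Illumina mRNA library, per the labels. The submitters' processing notes name bcl2fastq, TopHat2 2.0.6, HTSeq, DESeq2 and build mm10, without settings. The authors deposited whole-number counts per gene, the RPKM values made from them, and a coding length. They also deposited log2 fold changes with p-values and q-values of their comparisons, of which those of the members are quoted. RPKM values were only checked: they equal counts per kilobase and library total, of which gene counts were 75.57% to 80.68% in C57BL/6 and 86.45% to 87.97% in BALB/c. From the counts, edgeR 4.0.16 (R 4.3.3, filterByExpr, TMM factors of 0.9136 to 1.171) fitted a mean per group to all 12 samples with 8 residual degrees of freedom, and quasi-likelihood tests were adjusted by Benjamini-Hochberg over 16190 genes. The fit was tested on simulated data of the wild-type strain comparison (15856 genes, 200 changed), where it recovered 80% of genes set 2-fold higher, 100% of those 4-fold higher, 70% at 0.5 times and 95.9% at 0.25 times, with 5.49% of calls false. CPM uses TMM-scaled library sizes, and 95% intervals use the degrees of freedom of the fit. A CPM per kilobase uses the deposited length. DESeq2 1.42.0, limma 3.58.1, other scalings, no filter, halved counts, a covariate of Y-linked genes, fits of only the groups compared and each replicate left out were tried. The members and lists were chosen with earlier results of these data known. All members were named, as were up to 4 called genes per list and comparison (smallest adjusted p), called or tested neighbours within 300 kb and the 5 genes of most similar pattern. Of the tested genes, 98.7% had a value of shared 50-base words, taken from GENCODE transcripts. Counting intervals and limits cover counting error only.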

Additional observations from a re-analysis of the deposited data

How the results depend on the processing

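Depth limits these results: the members had 0 to 414 counts per library, and the intervals of Gbp5, Gbp8 and Gbp10 are wide. Strain and flow cell cannot be told apart, and groups hold 3 samples. No paired analysis was possible because the groups share no replicate numbers.

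Counts of called members were 0 in all alternatives for BALB/c genotypes, the interaction and the averaged genotype effect. Over these alternatives 0% to 1.95%, 3.78% to 19% and 2.99% to 15.9% of all genes were called, in that order. Between C57BL/6 genotypes 23.9% of all genes were called in the main fit. There the count of 1 became 0 with total counts (28.9% of all genes called), with only the groups of the contrast (9.21%) and with limma-voom (29.1%). It was 0 to 1 with a replicate left out (10.5% to 29.3%). For the mutant strains, with 36.9% of all genes called, the count of 2 became 1 when every gene with at least 1 count was kept (27.8%). It was 1 to 3 with a replicate left out (27.3% to 32.6%). With Gbp6 added it was 3 with total counts (36.8%), halved counts (39.3%), limma-voom (36.4%) and DESeq2 (39.4%). For wild-type strains, with 48.5% of all genes called, the count of 3 was 2 to 3 with a replicate left out (39.7% to 44.5%). With the Y-linked covariate the wild-type count was 2, without Gbp10 (42.6% of all genes called), and the mutant count of 2 held Gbp3 and Gbp6 (36.5%). With scaling by total counts the median log2 difference of all genes was -0.201 between C57BL/6 genotypes, -0.116 between wild-type strains, 0.112 between mutant strains and 0.238 in the interaction. With TMM these medians were -0.00395, -0.00133, -0.00407 and 0.00739, and changes are stated relative to TMM. The lower bound for Gbp1 in wild type was 18.4-fold without replicate 2. The strain calls of Gbp4 and Gbp6 in wild type and Gbp3 in mutants held in 14 of 14 alternatives each. The cause was not tested for any change below.

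Direction reversed only for members that were not called. Gbp5 between mutant strains was -0.00592 with RLE size factors and -0.00475 with DESeq2. Gbp7 and Gbp10 between C57BL/6 genotypes were -0.0115 and -0.0505 with total counts, and Gbp10 was -0.116 with the Y-linked covariate. Between wild-type strains Gbp9 was 0.000891 without the filter, 0.00488 with only the groups compared, 0.133 with the Y-linked covariate and 0.0382 with limma-voom, and Gbp2 was 0.064 with the Y-linked covariate. Gbp1 between BALB/c genotypes was -0.019 with limma-voom. With a replicate left out, log2 differences ran between C57BL/6 genotypes from -0.671 to 1.62 for Gbp10 and from -0.362 to 0.0285 for Gbp8. Between BALB/c genotypes they ran from -0.161 to 0.326 for Gbp1 and from -0.264 to 0.0867 for Gbp4. Between wild-type strains the ranges were -0.172 to 0.000368 for Gbp2, -0.513 to 0.342 for Gbp8 and -0.186 to 0.179 for Gbp9, and between mutant strains -0.222 to 0.241 for Gbp5 and -0.0276 to 0.3 for Gbp9.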

Other observations

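In addition, 2 other groups of interferon-inducible genes were measured beside the Gbp genes. Of 11 genes of class I antigen presentation, 7 were higher and 2 lower in BALB/c wild type, and 5 higher and 3 lower in BALB/c mutants, with median log2 differences of 0.30 and 0.25. Over all genes 48.5% were called in either direction between the wild-type strains and 36.9% between the mutants. The peptide transporter genes Tap2 (log2 0.55, adjusted p = 0.00013 in edgeR) and Tap1 (0.48, 0.00223) and the proteasome activator subunit Psme1 (0.30, 0.00265) were higher in BALB/c wild type, and the class I heavy chain H2-D1 was lower (-0.26, 0.00599). In mutants H2-D1 (-0.59, 3.82e-05) and H2-K1 (-0.76, 0.00117) were lower in BALB/c, and the immunoproteasome subunit Psmb8 was higher (0.93, 0.00145). H2-D1 and H2-K1 differ in sequence between these strains, and the counts were made on a C57BL/6 reference, so their counts are uncertain.

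Of 8 inflammasome genes, 3 were higher and 1 lower in BALB/c wild type, and 2 higher and 0 lower in BALB/c mutants (over all genes 22.8% and 25.6%, and 18% and 18.9%). The pore-forming Gsdmd was higher in BALB/c in wild type (log2 0.74, adjusted p = 1.89e-05 in edgeR) and in mutants (0.25, 0.016), as was Il1b in mutants (0.86, 0.00622). Casp4 (0.65, 0.00332), the protease that senses bacterial lipopolysaccharide, and Aim2 (0.65, 0.00419), a sensor of DNA, were higher in BALB/c wild type. Between C57BL/6 genotypes Gsdmd (0.41, 0.00282) and Aim2 (0.52, 0.0276) were higher in mutants and Il1b lower (-1.02, 0.00552), where 3 of 6 neutrophil markers were also lower, whose part was not tested. The genotype effect differed between strains for Gsdmd (-0.48, 0.0156) and Il1b (1.07, 0.0384).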
